A study of Canis lupus with 20 samples.

Results

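The mitochondrial ribosomal protein genes, those whose symbol begins with MRPL or MRPS followed by a number, were examined across 20 heart arrays from dogs. A probe set, the group of short probes that reads 1 transcript on an Affymetrix array, was taken where the platform annotation gave it exactly 1 such symbol. This found 162 probe sets for 73 genes, out of 43035 probe sets and 15115 genes on the table. Where a gene had several probe sets, the brightest over all arrays stood for it. By symbol, 47 genes coded for the large subunit and 26 for the small subunit.

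The study compared normal dogs after right-sided uninephrectomy, the removal of 1 kidney, with dogs after a sham operation. Heart tissue was taken at sacrifice 12 weeks later. The groups were uninephrectomized left atrium, sham left atrium, uninephrectomized left ventricle and sham left ventricle, with 5 arrays each. Of the 6 dogs assigned to each operation, 5 samples per chamber were arrayed, with no technical replicates, and total RNA was labelled with biotin from an input of 100 ng.

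Mitochondria hold a ribosome of their own, which translates the few proteins that mitochondrial DNA encodes, all of them core subunits of oxidative phosphorylation. Its RNAs come from mitochondrial DNA, while every one of its proteins is encoded in the nucleus, made in the cytosol and imported. Some of these proteins descend from bacterial ribosomal proteins, and others were added in the mitochondrial lineage. Heart muscle is among the tissues richest in mitochondria, and inherited defects of several of these proteins in humans, among them MRPL3, MRPS14 and MRPS22, can present with cardiomyopathy.

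The values were log2 signals as the authors deposited them, and array medians lay between 2.33 and 2.39. On the atrial marker list 4 of 5 genes were higher, and on the ventricular list 4 of 4 were lower, in atrium than in ventricle of sham dogs, so the chambers differed as labelled. RNA quality was read as the mean 3′ to 5′ or middle gap of control probe sets for ACTB, GAPDH and EEF1A. It averaged 1.10 in uninephrectomized atrium, 1.19 in sham atrium, 1.14 in uninephrectomized ventricle and 1.42 in sham ventricle (log2 units, n = 5 each). None of the 4 group differences of this mean gap passed a two-sided exact permutation test. The permutation p lay between 0.0635 and 0.738 (adjusted over the 4 tests between 0.254 and 0.738, smallest possible p 0.00794). The EEF1A gap alone averaged 0.98 in sham atrium and 1.62 in sham ventricle, and 0.89 and 1.31 after uninephrectomy. For ACTB these were 0.77 and 0.84, then 0.65 and 0.49. For GAPDH they were 1.82 and 1.81, then 1.77 and 1.62. The single gaps were not tested.

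All 73 genes passed the filter on dim probe sets, which removed those with a mean under 1.87. Their mean log2 signals had a median of 9.16, above that of 86.3% of tested genes. Of the 73, 16 had a mean of at least 10, 45 lay from 8 to 10 and 8 from 3 to 8. The other 4 were MRPL54, MRPS34, MRPL10 and MRPL4, which lay between 2.0 and 3.0, near the low end of the scale. The probe sets with the largest signals were those of MRPS16 (11.24), MRPL36 (11.13), MRPL40 (11.04), MRPS31 (10.76) and MRPL47 (10.60), which does not rank the transcripts themselves, since probes differ in brightness. The pooled SD within groups had a median of 0.14 over the 73 genes, so a typical difference between 2 groups carried an SE of 0.09.

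The clearest pattern in the family was between the heart chambers. In sham dogs 29 of the 73 genes (39.7%) were lower in left atrium than in left ventricle and 0 were higher, at an adjusted p under 0.05 (limma, Benjamini-Hochberg over 30047 probe sets). Over all 11423 tested genes the shares were 10.8% lower and 12% higher. Over the 2682 genes with a mean of at least log2 8 they were 21.4% lower and 18.5% higher. The atrium minus ventricle log2 difference was negative for 66 of the 73, with a median of -0.25, against -0.01 over all tested genes. In 19 of the 73 the 5 atrial arrays all lay below the 5 ventricular arrays. This was so for 7.48% of all tested genes and 16.2% of the brighter ones. Without sham atrium array 5 the count was 18 (24.7%), against 8.85% of all tested genes and 18.5% of the brighter ones. The count was 19 when only the sham arrays were fitted, a fit for which no share over all tested genes is given. Both of these fits again gave 0 higher. Bulk tissue cannot tell fewer cells of a type from less RNA per cell.

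**Figure D1:**
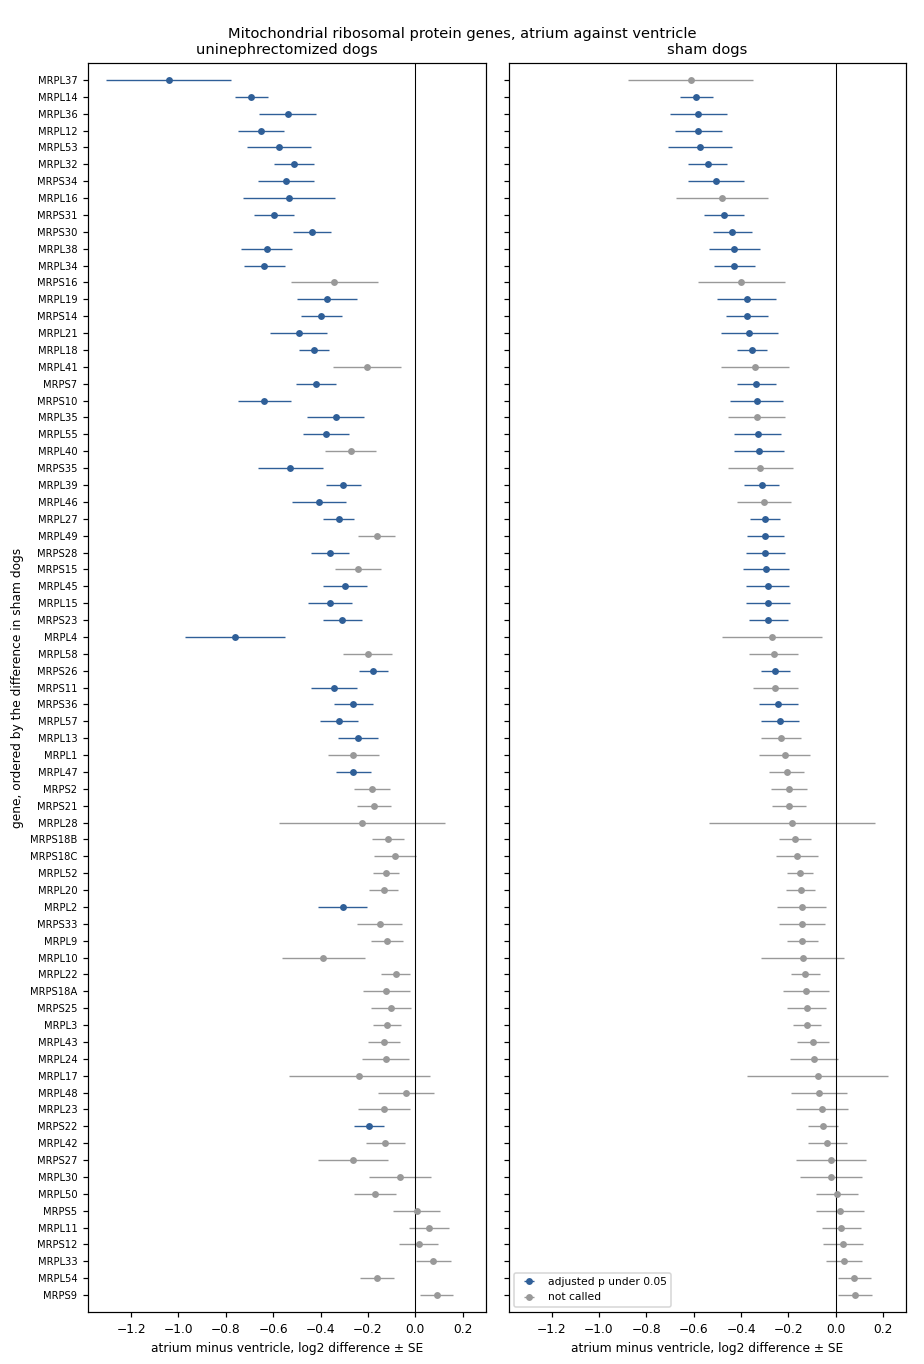
Atrium minus ventricle log2 difference of each of the 73 genes (points) with its SE (bars), in uninephrectomized dogs (left) and sham dogs (right), ordered by the value in sham dogs. Blue points had an adjusted p under 0.05, 37 in uninephrectomized and 29 in sham dogs, and all of them lie below 0.

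In the large subunit, MRPL14, a protein at the face that meets the small subunit, had the smallest adjusted p. Its log2 signals in sham dogs were 9.60, 9.52, 9.56, 9.64 and 9.29 in atrium, against 10.08, 10.07, 10.11, 10.09 and 10.20 in ventricle. Every atrial array was below every ventricular one. The difference was -0.59 ± 0.07 (SE, n = 5 per group; limma adjusted p = 6.1e-06), an atrial signal 0.665 times the ventricular one.

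MRPL12, the stalk protein that recruits translation factors to the ribosome, showed 8.72, 8.75, 8.65, 8.65 and 8.31 in sham atrium, against 9.10, 9.25, 9.44, 9.04 and 9.17 in sham ventricle. The chambers did not overlap, and the difference was -0.58 ± 0.10 (limma adjusted p = 0.00034). MRPL36, a small zinc-binding protein, measured 10.88, 10.88, 10.96, 10.94 and 10.51 in sham atrium, against 11.41, 11.50, 11.49, 11.47 and 11.20 in sham ventricle. These chambers were separate too, by -0.58 ± 0.12 (limma adjusted p = 0.0017).

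MRPL32, which in mice and yeast must be cleaved by the m-AAA protease before it joins the ribosome, had 8.17, 8.29, 8.09, 8.38 and 8.03 in sham atrium, against 8.73, 8.73, 8.67, 8.77 and 8.76 in sham ventricle. Its ventricular arrays were tightly grouped, and all atrial arrays lay below them (-0.54 ± 0.08, limma adjusted p = 0.00012). MRPL53, which has no bacterial counterpart, differed by -0.57 ± 0.14 and did not overlap either. Among the other large-subunit genes with the largest called differences were MRPL38 (-0.43 ± 0.11), MRPL34 (-0.43 ± 0.09) and MRPL19 (-0.38 ± 0.13), with limma adjusted p-values of 0.0074, 0.0017 and 0.039. MRPL38 and MRPL34 did not overlap between chambers, while MRPL19 did. The call of MRPL19 was lost in 13 of 32 alternatives (limma adjusted p between 0.0081 and 0.11), among them quantile normalization, array weights and the fit of sham arrays alone.

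In the small subunit, MRPS31 measured 10.55, 10.70, 10.66, 10.63 and 10.24 in sham atrium, against 11.04, 11.02, 11.18, 11.01 and 10.88 in sham ventricle. No atrial array reached the lowest ventricular one, and the difference was -0.47 ± 0.08 (limma adjusted p = 0.00046). MRPS14, one of the proteins of bacterial descent, measured 9.54, 9.67, 9.84, 9.67 and 9.32 in sham atrium, against 9.91, 9.91, 10.13, 10.02 and 9.94 in sham ventricle. The highest atrial array was just under the lowest ventricular ones (-0.37 ± 0.09, limma adjusted p = 0.0044). MRPS34 also counted among the 29, but its probe set was dim: its group means of 1.74 in uninephrectomized atrium and 1.86 in sham atrium were under the filter threshold of 1.87, beside 2.28 in uninephrectomized ventricle and 2.36 in sham ventricle. It passed the filter only through ventricle, so neither its size nor its call is read, although the counts given here include it.

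Some members are named for a subunit in which their protein does not work. MRPS30 and MRPS18A, both named as small-subunit proteins, sit in the large subunit. MRPS30 was lower in sham atrium by -0.44 ± 0.08 (limma adjusted p = 0.00068), whereas MRPS18A gave -0.13 ± 0.10 (adjusted p = 0.41). MRPS36, now known as a component of the 2-oxoglutarate dehydrogenase complex, gave -0.24 ± 0.08 (limma adjusted p = 0.041), a call lost in 11 of 32 alternatives (adjusted p between 0.022 and 0.12), among them both other scalings.

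**Figure D2:**
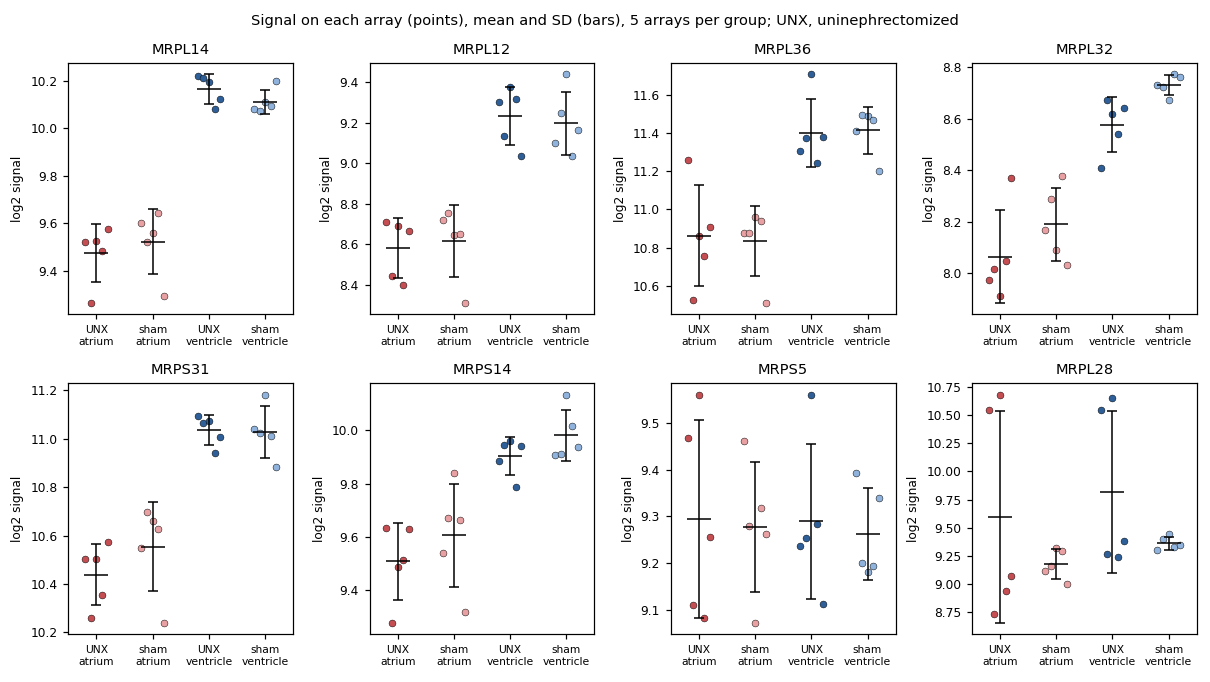
Log2 signal of 8 genes on each array, in uninephrectomized atrium, sham atrium, uninephrectomized ventricle and sham ventricle (5 arrays each), with mean and SD; the axes do not start at 0. The first 6 genes are lower in atrium, MRPS5 differed by 0.02 between the sham chambers, and MRPL28 has 2 arrays above 10.5 in each uninephrectomized group.

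Of the other members tied to heart disease in humans, neither MRPL3 (-0.12 ± 0.06, limma adjusted p = 0.16) nor MRPS22 (-0.05 ± 0.06, adjusted p = 0.60) passed the test in sham dogs. In uninephrectomized dogs MRPS22 was lower in atrium (-0.20 ± 0.06, limma adjusted p = 0.026), while MRPL3 gave -0.12 ± 0.06 (adjusted p = 0.14). MRPL45, which holds the ribosome at the inner membrane beside the peptide exit, was lower in sham atrium (-0.29 ± 0.09, limma adjusted p = 0.030), a call lost in 10 of 32 alternatives. With sham arrays of the same replicate number as a block, MRPL45 no longer passed (limma adjusted p = 0.052), nor did MRPL15 (0.059) or MRPS23 (0.0505), while 6 genes were called only with the block, namely MRPL16, MRPL35, MRPL37, MRPL41, MRPL46 and MRPS16. MRPL58, a peptidyl-tRNA hydrolase that is also a ribosomal subunit, gave -0.26 ± 0.10 (limma adjusted p = 0.084). The paralogues MRPS18B and MRPS18C gave -0.17 ± 0.07 and -0.16 ± 0.09, and neither passed.

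The 7 genes with a difference above 0 in sham dogs were MRPS9, MRPL54, MRPL33, MRPS12, MRPL11, MRPS5 and MRPL50. The highest was MRPS9 at 0.08 ± 0.07 (limma adjusted p = 0.46). MRPS5, a small-subunit protein at the entry of the mRNA channel, measured 9.46, 9.28, 9.07, 9.32 and 9.26 in sham atrium, against 9.39, 9.20, 9.18, 9.19 and 9.34 in sham ventricle. Its chambers overlapped fully, and its difference was 0.02 ± 0.10.

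The chambers of the uninephrectomized dogs, measured on the other 10 arrays, gave 37 of 73 genes (50.7%) lower in atrium and 0 higher. The shares over all tested genes were 13.7% lower and 16.2% higher, and over the brighter genes 24% lower and 24.2% higher. The difference was negative for 68 of 73, with a median of -0.26, and 28 of 73 did not overlap in that direction, against 10.9% of all tested genes and 20.3% of the brighter ones. Of the genes called lower, 26 were called in both operations, which is 89.7% of those called in sham dogs and 70.3% of those called in uninephrectomized dogs. Both sets come from 1 fit with a shared estimate of the spread. The matching share over all tested genes is not given, so the overlap is not read as a trait of the family.

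MRPL14 again had the smallest adjusted p in the family in uninephrectomized dogs (-0.69 ± 0.07, limma adjusted p = 6.6e-07). It measured 9.52, 9.26, 9.52, 9.48 and 9.58 in atrium, against 10.22, 10.21, 10.19, 10.08 and 10.12 in ventricle. Differences of similar size were those of MRPL12 (-0.65 ± 0.10), MRPL34 (-0.64 ± 0.09) and MRPS10 (-0.64 ± 0.11), with limma adjusted p-values of 8.0e-05, 2.9e-05 and 0.00033. MRPS10, another protein of bacterial descent, measured 7.41, 7.50, 7.55, 7.66 and 7.60 in uninephrectomized atrium, against 7.94, 8.36, 8.05, 8.17 and 8.38 in uninephrectomized ventricle, without overlap.

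The largest difference there was for MRPL37, at -1.04 ± 0.26 (limma adjusted p = 0.0063), and it came with a wide spread. Its signals were 7.30, 6.08, 7.35, 5.77 and 7.16 in uninephrectomized atrium, against 8.04, 7.72, 8.22, 7.44 and 7.44 in uninephrectomized ventricle. Atrial arrays 2 and 4 lay more than 1 log2 unit below the other 3, and those 3 were also below every ventricular array. In sham dogs the difference of MRPL37 was -0.61 ± 0.26 and did not pass (limma adjusted p = 0.11), but it passed with the sham replicate numbers as a block (-0.61 ± 0.14, adjusted p = 0.022). MRPL4 differed by -0.76 ± 0.21 (limma adjusted p = 0.011), with dim group means of 2.76 in uninephrectomized atrium and 3.52 in uninephrectomized ventricle.

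Both subunits took part. By symbol, 18 of 47 large-subunit genes (median difference -0.26) and 11 of 26 small-subunit genes (median -0.25) were lower in sham atrium, and 24 and 13 in uninephrectomized atrium. As shares, these were 38.3% and 42.3% in sham dogs, beside 10.8% of all tested genes and 21.4% of the brighter ones, and 51.1% and 50% in uninephrectomized dogs, beside 13.7% and 24%. Placing the genes by where their protein sits gave 19 of 49 for the large and 9 of 23 for the small subunit in sham dogs. Of the 41 genes of bacterial descent 14 (34.1%) were lower in sham atrium, and of the other 32, 15 (46.9%) were. No difference between these classes was tested.

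Other probe sets of the same genes could be read beside the chosen ones, although they share the target transcript. Of the genes called lower in sham atrium, 22 had other tested probe sets, 32 in all. Of these, 31 had a negative difference, 15 were called lower and 0 higher. Over all 153 tested probe sets of the family, 44 were lower and 0 higher in sham atrium, against 9.62% and 11.2% of all 30047. In uninephrectomized atrium 71 were lower and 0 higher, against 12.5% and 14.7%. Among the chosen probe sets 34 had a name marking probes that may match several transcripts, and 16 of these were called lower in sham dogs, against 13 of the other 39.

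Cell type markers differed between the chambers as well. Over all tested genes 10.8% were lower and 12% higher in sham atrium, and over the brighter ones 21.4% and 18.5%. In sham dogs 5 of 9 cardiomyocyte markers were lower in atrium (median difference -0.24), 6 of 8 fibroblast markers were higher (median 1.07), 3 of 6 smooth muscle and 3 of 6 adipocyte markers were higher, 2 of 8 endothelial markers were lower and 0 of 7 macrophage markers passed. The mean over the cardiomyocyte list lay between 13.2 and 13.3 in uninephrectomized atrium, between 13.2 and 13.3 in sham atrium, between 13.5 and 13.7 in uninephrectomized ventricle and between 13.4 and 13.6 in sham ventricle. The mean over the fibroblast list lay between 10.2 and 10.9 in uninephrectomized atrium, between 9.44 and 10.6 in sham atrium, between 8.67 and 9.27 in uninephrectomized ventricle and between 8.68 and 9.21 in sham ventricle. Their part in the lower ribosomal signals was not tested.

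The mean over the 73 genes was 8.62 ± 0.08 in uninephrectomized atrium, 8.69 ± 0.11 in sham atrium, 8.92 ± 0.02 in uninephrectomized ventricle and 8.93 ± 0.05 in sham ventricle (SD, n = 5 each). The SDs were larger in atrium than in ventricle. Sham atrium array 5 was the lowest of its group at 8.50, the others lying between 8.69 and 8.77, and it still lay below the ventricular range together with them. Without this array 18 of 73 genes (24.7%) were lower in sham atrium, all of them among the 29, against 8.85% of all tested genes and 18.5% of the brighter ones. MRPL14, MRPL12, MRPL36, MRPL32, MRPL53, MRPS31, MRPS14, MRPS30, the dim MRPS34, MRPL38 and MRPL34 were among the 18, and MRPL19, MRPL45 and MRPS36 were not.

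**Figure D3:**
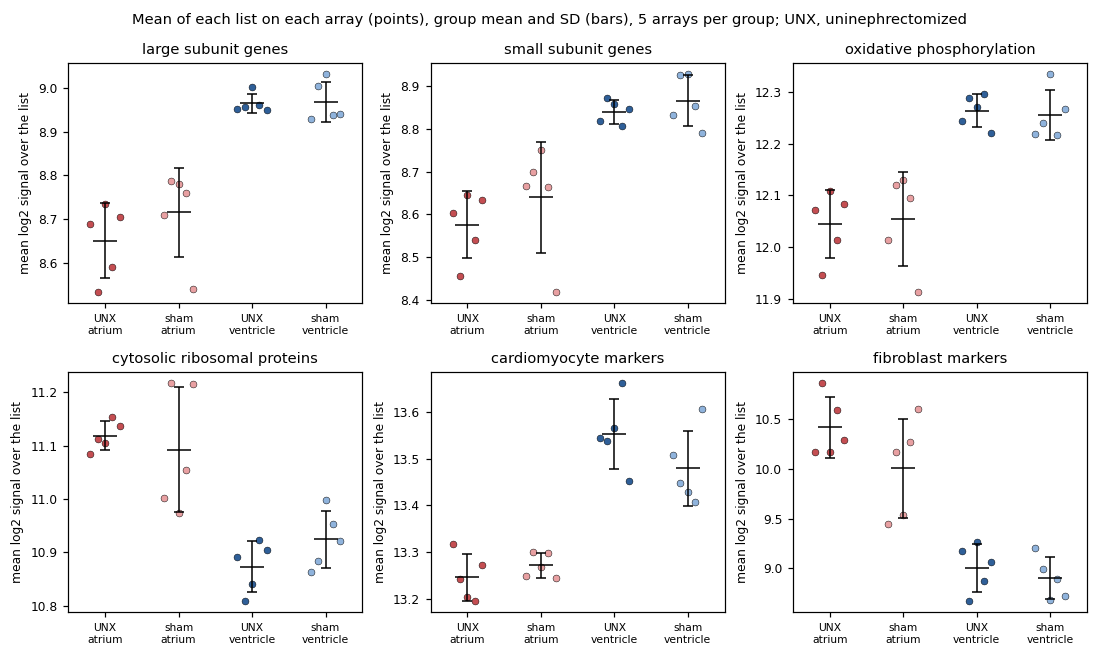
Mean log2 signal over 6 gene lists on each array, for uninephrectomized atrium, sham atrium, uninephrectomized ventricle and sham ventricle (points, 5 arrays each), with group mean and SD; the axes do not start at 0. Both ribosomal subunits, oxidative phosphorylation genes and cardiomyocyte markers are lower in atrium, and cytosolic ribosomal proteins and fibroblast markers higher.

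Genes of related functions were read from other lists. Of 62 nuclear genes for oxidative phosphorylation subunits, which assemble with the products of the mitochondrial ribosome, 26 (41.9%) were lower and 0 higher in sham atrium (median -0.19), and 30 lower and 0 higher in uninephrectomized atrium (median -0.20). Over all tested genes 10.8% and 13.7% were lower in sham and uninephrectomized atrium, and over the brighter ones 21.4% and 24%. Proteins of the cytosolic ribosome went the other way. Of 55 tested genes 30 were higher and 2 lower in sham atrium (median 0.22), and 40 higher and 1 lower in uninephrectomized atrium (median 0.29). The muscle paralogue RPL3L was among the lower ones (-0.92 ± 0.10 in sham dogs, limma adjusted p = 1.9e-06). Over all tested genes 12% and 16.2% were higher in sham and uninephrectomized atrium, and over the brighter ones 18.5% and 24.2%. The difference between the 2 ribosomes was not tested as such.

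Of 60 tested genes for the rest of the mitochondrial translation machinery, 12 (20%) were lower and 0 higher in sham atrium (median -0.17), and 18 (30%) lower and 1 higher in uninephrectomized atrium. The shares lower over all tested genes were 10.8% and 13.7%, and over the brighter ones 21.4% and 24%. The sham share was above that of all tested genes but not above that of the brighter ones. The median signal of the list was 5.33, below the bound of log2 8 for the brighter genes. Among 5 ribosomal proteins that carry other names, 3 were lower in sham atrium: PTCD3 (-0.44 ± 0.09), GADD45GIP1 (-0.40 ± 0.12) and CHCHD1 (-0.29 ± 0.09). Of 9 translation factors 3 were lower, the initiation factor MTIF3 (-0.65 ± 0.10), the release factor family member MTRF1 (-0.52 ± 0.15) and the elongation factor TUFM (-0.38 ± 0.09). GFM2, which helps split the ribosome after termination, was the single higher gene, in uninephrectomized dogs (0.53 ± 0.11, limma adjusted p = 0.0016), with 0.31 ± 0.11 (adjusted p = 0.055) in sham dogs.

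Ribosome assembly factors gave 4 of 17 (23.5%) lower in sham atrium, near the 21.4% of the brighter genes, among them RBFA (-0.65 ± 0.11), which acts on the maturing small subunit, and ERAL1 (-0.34 ± 0.11), a chaperone of the small-subunit RNA. METTL17 (-0.31 ± 0.11) and the dim MRM1 (-0.19 ± 0.07) were the others. Of 16 mitochondrial tRNA synthetases 1 (6.25%, against 10.8% of all tested genes) was lower, CARS2 (-0.40 ± 0.13), and 0 of 4 genes for mitochondrial mRNA handling and membrane insertion passed. Of 9 regulators of mitochondrial biogenesis 1 (11.1%) was lower, near the 10.8% of all tested genes. It was GABPA (-0.46 ± 0.09), a transcription factor subunit that acts on many nuclear genes for mitochondrial proteins. In uninephrectomized atrium 3 of 17 assembly factors (17.6%) and 3 of 16 synthetases (18.8%) were lower. So were 1 of 4 mRNA and insertion genes and 3 of 9 biogenesis regulators (33.3%), and 0 of these lists were higher. The shares lower there were 13.7% of all tested genes and 24% of the brighter ones.

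**Figure D4:**
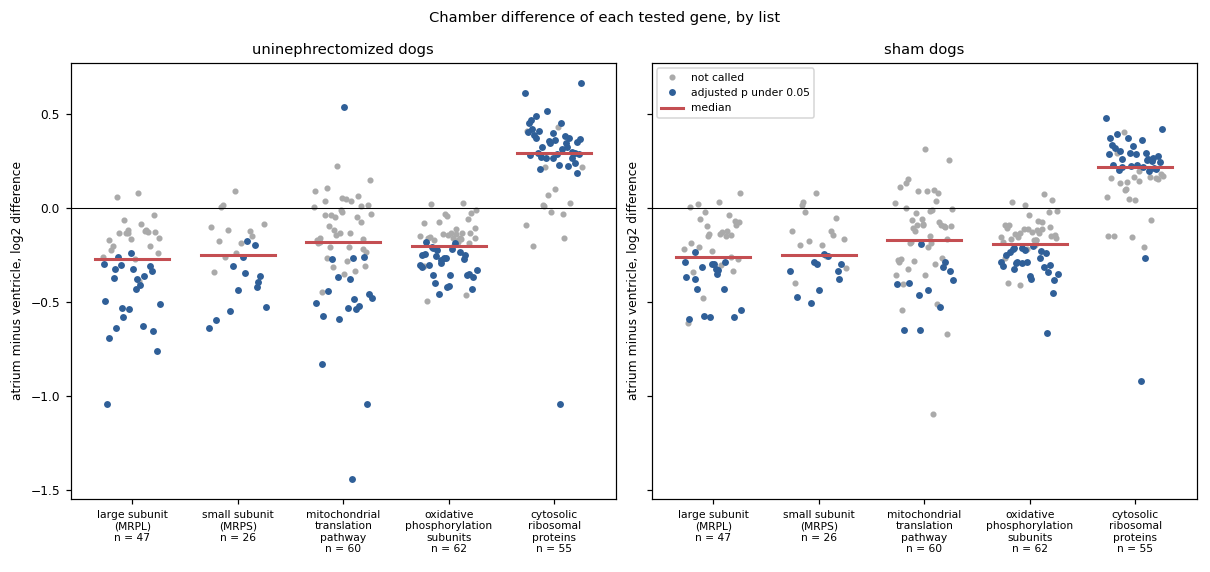
Atrium minus ventricle log2 difference of every tested gene in 5 lists, in uninephrectomized dogs (left) and sham dogs (right), with list medians in red and called genes in blue. Both mitochondrial ribosome subunits have medians between -0.27 and -0.25, and cytosolic ribosomal proteins have medians of 0.29 and 0.22.

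Uninephrectomy against sham gave 0 called members in left atrium, as it gave 0 of 30047 probe sets (0%). At an unadjusted p under 0.05, 1 member was higher and 5 were lower, 6 of 73 in all, against 6.62% of all tested genes in either direction. The difference was negative for 55 of 73 (75.3%), with a median of -0.08, against 51.9% and -0.01 over all tested genes. Of the fibroblast markers, 8 of 8 had a positive difference (median 0.38), 3 of them at an unadjusted p under 0.05 and 0 after adjustment, with list means of 10.2 to 10.9 in uninephrectomized atrium and 9.44 to 10.6 in sham atrium. Their part in the negative ribosomal differences, none of which passed, was not tested. The differences of the 73 genes come from the same arrays and are not independent of each other. No member separated the operations completely, which 0.508% of all tested genes did in the higher and 0.42% in the lower direction.

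The smallest p in atrium was that of MRPS35, a small-subunit protein without bacterial counterpart. It measured 8.25, 8.41, 8.84, 8.74 and 8.71 in uninephrectomized atrium, against 9.14, 9.14, 9.32, 8.90 and 8.48 in sham atrium. Only sham array 5 fell into the uninephrectomized range, and the difference of -0.41 ± 0.14 did not pass (limma adjusted p = 0.66). MRPL21 (-0.30 ± 0.12), MRPL19 (-0.27 ± 0.13), MRPL54 (-0.16 ± 0.07), MRPL42 (-0.16 ± 0.08) and MRPL22 (-0.14 ± 0.06) came next, with limma adjusted p-values between 0.69 and 0.76.

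In the positive direction MRPL41 had 0.33 ± 0.14 (limma adjusted p = 0.73). It measured 5.91, 5.76, 6.36, 6.14 and 6.56 in uninephrectomized atrium, against 5.99, 6.14, 5.82, 5.69 and 5.45 in sham atrium, with overlap. MRPL49 (0.08 ± 0.08), MRPL52 (0.05 ± 0.05), MRPS27 (0.10 ± 0.15) and MRPS12 (0.05 ± 0.08) each lay within about 1 SE of 0.

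In left ventricle uninephrectomy also gave 0 called members and 0 called probe sets (0%). At an unadjusted p under 0.05, 2 members were higher and 4 lower, 6 of 73, against 6.22% of all tested genes. The difference was negative for 43 of 73 (58.9%, median -0.04), as it was for 52.5% of all tested genes and 59.4% of the brighter ones (median -0.03). MRPS26 and MRPL33 were lower without overlap, 2 of 73, which in that direction held for 0.569% of all tested genes and 1.01% of the brighter ones.

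MRPS26 measured 9.20, 9.18, 9.25, 9.19 and 9.18 in uninephrectomized ventricle, against 9.32, 9.31, 9.38, 9.44 and 9.32 in sham ventricle. The operations were separate, by a small step of -0.15 ± 0.06 that did not pass (limma adjusted p = 0.69). MRPL33 measured 10.08, 10.13, 10.13, 10.01 and 10.02 in uninephrectomized ventricle, against 10.24, 10.17, 10.35, 10.25 and 10.21 in sham ventricle (-0.17 ± 0.08, limma adjusted p = 0.73).

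MRPL22, which lines the exit tunnel for the growing peptide, had the smallest p in ventricle. It measured 9.17, 9.21, 9.25, 9.21 and 9.33 in uninephrectomized ventricle, against 9.24, 9.45, 9.52, 9.44 and 9.44 in sham ventricle. Its sham array 1 lay within the uninephrectomized range, and the difference of -0.19 ± 0.06 (95% interval -0.31 to -0.06) did not pass (limma adjusted p = 0.60). MRPL19 (-0.28 ± 0.13), MRPL32 (-0.16 ± 0.08) and MRPL3 (-0.10 ± 0.06) were the next lower ones. Positive differences were those of MRPL4 (0.54 ± 0.21), MRPL10 (0.32 ± 0.18) and MRPS27 (0.35 ± 0.15), all on probe sets with a mean under 5, and of MRPL2 (0.18 ± 0.10), MRPS10 (0.20 ± 0.11) and MRPL34 (0.15 ± 0.09). None of these passed.

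**Figure D5:**
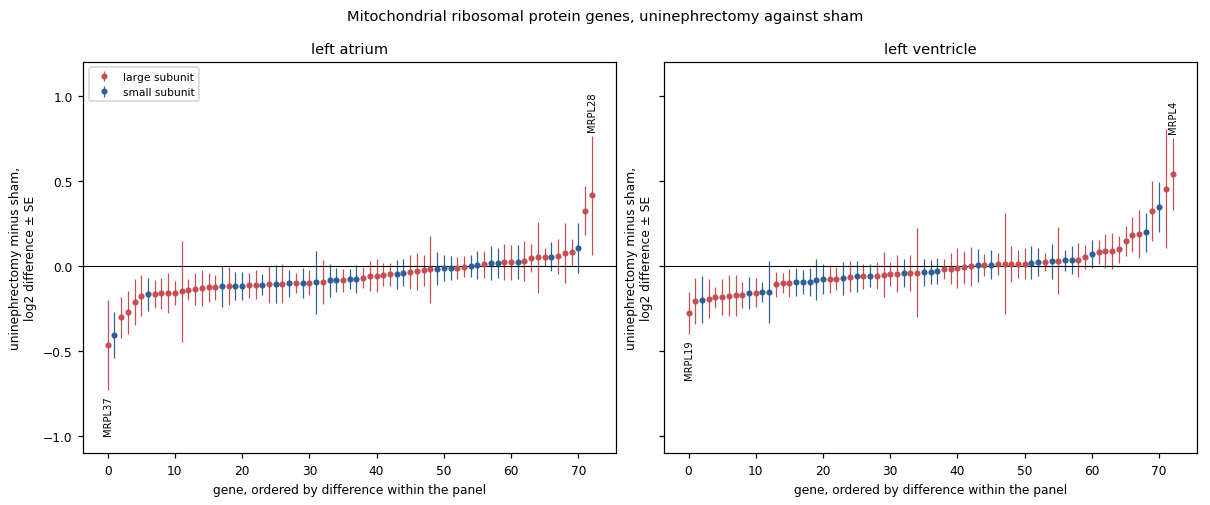
Uninephrectomy minus sham log2 difference of each of the 73 genes with its SE (bars), ordered within left atrium (left) and left ventricle (right), large-subunit genes in red and small-subunit genes in blue. Most points lie within 0.2 of 0, and none of the differences passed the test.

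The response to uninephrectomy was also compared between the chambers, as the atrial minus the ventricular difference. No member and no probe set (0%) passed. At an unadjusted p under 0.05 there was 1 member, MRPL54 (-0.24 ± 0.10), on a dim probe set, against 2.8% of all tested genes. MRPS10 (-0.30 ± 0.16), MRPL34 (-0.21 ± 0.12) and MRPL4 (-0.49 ± 0.30) were the next negative values, and MRPL49 (0.14 ± 0.11), MRPS26 (0.08 ± 0.09), MRPL41 (0.14 ± 0.20) and MRPS18B (0.06 ± 0.10) the leading positive ones.

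MRPL28, a large-subunit protein of bacterial descent, stood apart by its spread. In uninephrectomized atrium it measured 10.54, 8.73, 10.68, 8.94 and 9.07, against 9.11, 9.16, 9.32, 9.29 and 9.0 in sham atrium. In uninephrectomized ventricle it measured 10.55, 9.26, 10.65, 9.25 and 9.38, against 9.30, 9.40, 9.44, 9.33 and 9.35 in sham ventricle. Arrays 1 and 3 of the uninephrectomized dogs were thus high in both chambers, and no sham array was.

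The brightest of the 3 probe sets of MRPL28 gave those values, and the other probe sets had the same 4 high arrays. On one of them arrays 1 and 3 read 10.33 and 10.57 in uninephrectomized atrium and 10.35 and 10.57 in uninephrectomized ventricle, while its other 16 arrays lay between 8.41 and 9.27. On the other, arrays 1 and 3 read 9.05 and 9.10 in atrium and 9.12 and 9.18 in ventricle, while the other 16 lay between 7.44 and 8.09. The labels give the same replicate numbers in both chambers but do not say that a number marks 1 dog.

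The pooled within-group SD of MRPL28 was 0.59, the largest of the family, and 3.5% of all tested genes had a larger one. Its mean differences after uninephrectomy, 0.42 ± 0.35 in atrium and 0.46 ± 0.35 in ventricle, did not pass (limma adjusted p = 0.84 and 0.82), and each rested on 2 of the 5 arrays. MRPL17 had the next largest spread (0.50), from 6.12 to 7.72 in uninephrectomized atrium and from 6.44 to 8.01 in uninephrectomized ventricle, against 7.0 to 7.38 in sham atrium and 6.92 to 7.54 in sham ventricle. Array 4 was high in both chambers, at 7.72 in atrium and 8.0 in ventricle. Array 5 was the highest in ventricle, at 8.01, but read 6.76 in atrium. Array 1 was lowest in atrium and array 2 in ventricle.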

How the data were processed

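Total RNA from 20 dog heart samples was measured on Affymetrix arrays. The authors deposited 1 log2 value per probe set and array; the background correction and normalization behind it are not given in the sources used here. The 5 arrays per group limit the precision, and the labels do not say how samples relate to dogs. Gene names came from the platform annotation, which can be old: 29264 probe sets had 1 symbol, 439 several and 13332 none listed. Control probe sets (111) and the dimmest 30% were left out. The other 30047 were fitted with limma 3.58.1 in R 4.3.3 (4 group means, 16 residual degrees of freedom, Benjamini-Hochberg adjustment, threshold 0.05), and the fit was tested on simulated data. Three-prime gaps were tested by exact permutation. Genes described singly were those with the largest called chamber differences, the smallest surgery p-values, the brightest, dimmest and most variable members and a short list tied to heart disease or unusual subunit placement; MRPL15, MRPL16, MRPL35, MRPL46, MRPL50, MRPL11, MRPS9, MRPS23, RPL3L and GFM2 were chosen after their values were seen. The members and lists were chosen with earlier results of these data known. Whether replicate numbers pair samples was checked by correlating deviations from group means: in sham dogs all 5 pairs correlated (0.209 to 0.463), and in uninephrectomized dogs they ran from -0.235 to 0.115. The best match of each sham number was the same number in the other chamber, and that of each uninephrectomized number was another. The sham numbers were therefore taken as pairs, from the data and not from the labels. The main fit used no block, so its SEs and p-values for the sham chambers leave this pairing out. With a block in the sham arrays, 26 members were called in both fits, 6 only with the block and 3 only without it. The limma adjusted p of MRPL14 was 0.0053 with that block. Alternatives covered filters, scaling, weights, probe set choice, blocks and each array left out. Gene coordinates were not used here.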

Additional observations from a re-analysis of the deposited data

Results flagged for a closer look

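For 44 genes described singly, each group of 5 arrays was searched for 1 array far from the others by Dixon's test. This marked 9 of 176 gene and group combinations, and chance would mark about 8.8. Of the 9, 3 were low values on sham atrium array 5: MRPL12 at 8.31, MRPL36 at 10.51 and MRPS30 at 8.13, where the nearest other arrays read 8.65, 10.88 and 8.53. That array had the lowest mean over the family in its group. The other low values were MRPL33 on uninephrectomized atrium array 2 (9.96) and MRPL22 on sham ventricle array 1 (9.24). High values were MRPL36 (11.71) and MRPS26 (9.25) on uninephrectomized ventricle array 3, MRPL21 on uninephrectomized ventricle array 1 (9.57) and MRPS36 on uninephrectomized ventricle array 2 (10.83). MRPL28 was not marked, since 2 arrays, not 1, stood apart in each uninephrectomized group.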

How the results depend on the processing

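Under every alternative run, 0 members were higher in atrium than in ventricle in either operation, and 0 passed for uninephrectomy or its chamber difference. The count lower in sham atrium was 29 as reported. It was 19 when only the sham arrays were fitted and 44 over all 153 probe sets, for which the count in uninephrectomized dogs was 71 instead of 37; the last 2 are larger by construction, and the cause of the first was not tested. Leaving out 1 array at a time gave 18 to 33 in sham dogs, lowest without sham atrium array 5, and 29 to 39 in uninephrectomized dogs. Medians then ran from -0.28 to -0.19 and from -0.29 to -0.23, and for uninephrectomy from -0.11 to -0.04 in atrium and from -0.04 to -0.01 in ventricle. The median of the chamber difference of the response changed sign, from -0.08 to 0.01, the highest without uninephrectomized atrium array 2. With the replicate block, sham counts were 33 (fixed), 35 (random, correlation 0.0933) and 32 (sham arrays only, chosen after seeing the data). The fixed and random fits also blocked the uninephrectomized arrays by number, where the numbers were not taken as pairs. Of the 32, 26 were called without the block. With members of at least log2 8 alone, also chosen after seeing the data, 26 were lower in sham atrium. That setting holds only the 45 members from 8 to 10 and the 16 of at least 10. Shares over all tested genes are given only for the main fit and without sham atrium array 5, not for the other fits. The 3′ gap as a covariate gave 21. The sham difference of MRPS5 became -0.088 with that covariate and ranged from -0.030 to 0.068 with 1 array left out. With the mean of all probe sets of a gene, MRPS27 in atrium became -0.0032, and the chamber difference of the response became -0.14 for MRPL49, -0.064 for MRPS26 and -0.061 for MRPS18B. A planned search of promoters for motifs was not run, since no promoter sequences were used here. With 5 arrays a group, differences near the SE of 0.09 were not detectable. Larger differences after uninephrectomy did not pass either, such as MRPS35 in atrium (-0.41 ± 0.14, limma adjusted p = 0.66). MRPL22 in ventricle was another (-0.19 ± 0.06, limma adjusted p = 0.60). The lack of called members after uninephrectomy therefore does not exclude differences of such size.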
